A study of Sorghum bicolor with 4 samples.

Results

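The genes described here are 5 sucrose synthase genes and 5 sucrose-phosphate synthase genes of sorghum, 10 of the 34458 loci for which stem transcript levels were deposited. They were chosen by their Sobic gene identifiers and not by a cutoff on their values, but with earlier results of these data known. The family of each comes from that list of identifiers, since the table pairs no identifier with a gene name. Each of the 10 identifiers was found on 1 row, and none shared its row with another identifier.

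RNA was sequenced from the middle internode of the stem of the sweet sorghum line ICSA38, raised in the open field. Sweet sorghum is a form of the cereal whose stalk stores sugar. Libraries were made at the milk stage of grain filling (2 libraries) and at physiological maturity (2 libraries), and all 4 share line, tissue and growth conditions as labelled. Any difference in field conditions or handling between the samplings of the stages goes with stage and cannot be told apart from it. No treatment or genetic change is given in the labels, which also do not say whether the libraries of a stage came from separate plants. Levels are FPKM values, which count fragments relative to the length of the locus and to all mapped fragments of the library, so that genes can be compared with each other. For each locus the table gives a single FPKM per stage, read here, from its column names, as the authors' value for both libraries together. There is therefore no standard deviation and no test, and no difference below can be set against the variation between libraries.

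Sucrose synthase splits sucrose with UDP into fructose and UDP-glucose, in a reaction that can run both ways. The UDP-glucose can go to cellulose and other wall polymers, to starch or to respiration, and the enzyme is usually tied to tissues that import and use sucrose. Sucrose-phosphate synthase works in the direction of synthesis: it joins UDP-glucose and fructose 6-phosphate into sucrose 6-phosphate, from which a phosphatase then releases sucrose. Both families have several genes in grasses, and both enzymes are also regulated after transcription, which RNA does not measure. The design asks how the internode differs between the stages, and for these families how transcripts of sucrose cleavage and of sucrose synthesis were balanced at each.

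As deposited, the 2 families differed in the direction of their summed levels, though the sucrose-phosphate synthase sum was nearly unchanged under 1 scaling (below). The sucrose synthase genes reached a total of 723 FPKM at the milk stage and of 1023 FPKM at maturity, 1.42-fold higher. The sucrose-phosphate synthase genes reached 170 and 140 FPKM, 1.21-fold less at maturity. Sucrose synthase transcripts were thus 4.26 times as abundant as those of sucrose-phosphate synthase at the milk stage and 7.30 times at maturity, a 1.71-fold larger ratio. This ratio is formed within each stage, so no single scaling factor per stage can alter it. It became larger also when any 1 of the 10 genes was left out, by 1.53-fold without Sobic.001G344500 at the least and by 2.05-fold without Sobic.010G072300 at the most. Each of these sets still holds at least 1 of this pair, the 2 sucrose synthase genes that were higher at maturity as deposited. Leaving out both was not tried, so the larger ratio is not shown to be shared among the genes.

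**Figure D1:**
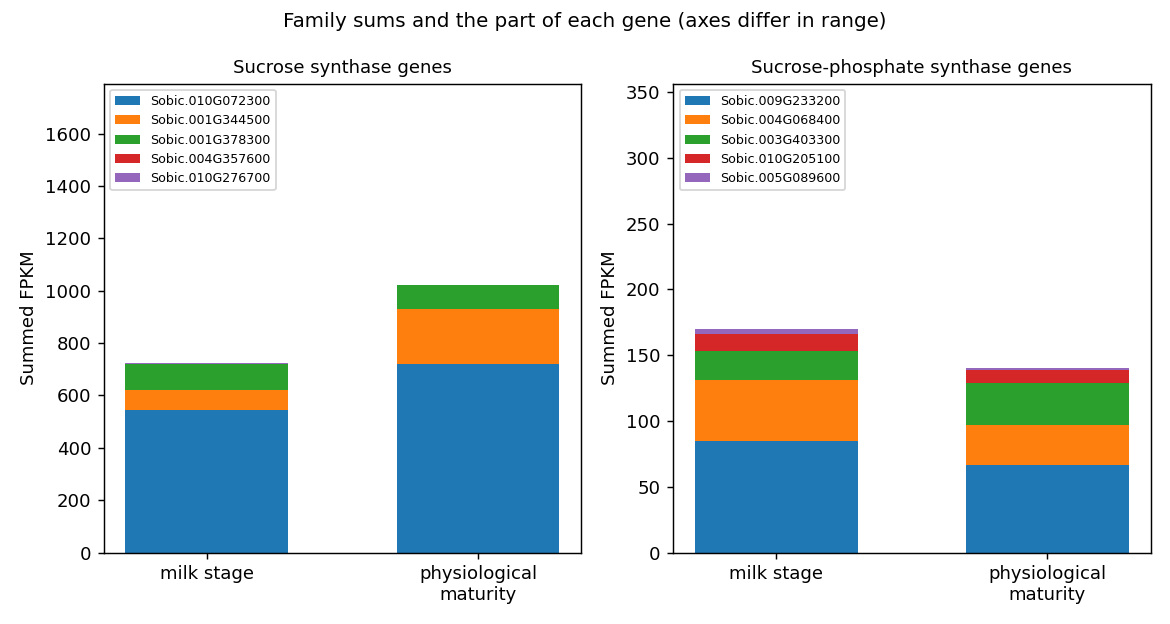
Summed FPKM (vertical axes from 0, with different ranges) of the sucrose synthase genes (left) and the sucrose-phosphate synthase genes (right) at each stage, with 1 colour per gene and 1 deposited value per gene and stage. The sucrose synthase bars are 723 FPKM (milk stage) and 1023 FPKM (maturity) high, and the sucrose-phosphate synthase bars 170 and 140 FPKM; Sobic.004G357600 and Sobic.010G276700 are too low to be seen.

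The size of the difference in the sucrose-phosphate synthase sum depended on how the stages were scaled. The whole table adds up to 800834 FPKM in the milk-stage column and 666768 FPKM in the maturity column. As a share of these sums, sucrose-phosphate synthase took 0.0212% at the milk stage and 0.0210% at maturity, whereas sucrose synthase took 0.0903% and 0.153%. With the stages set to equal sums, the log2 ratio of the sucrose-phosphate synthase sums was -0.011, against -0.28 as deposited, and that of the sucrose synthase sums was 0.77, against 0.50. With quantile normalization and median-of-ratios scaling, the sucrose-phosphate synthase value was -0.20 and -0.31, near that deposited.

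Gene by gene, 3 of the 10 were higher at maturity and 7 lower by any amount (4 and 6 with quantile normalization or equal sums, which turned Sobic.001G378300), where 52% of the 18749 loci compared (those with at least 1 FPKM at either stage) were higher and 48% lower. Differences are given as log2(FPKM + 1) at maturity minus the same at the milk stage, which understates those of low genes. On that scale 1 gene was at least 2-fold higher, Sobic.001G344500, where 11.5% of all loci compared were. A further 2 were at least 2-fold lower, Sobic.004G357600 and Sobic.005G089600, where 10.7% of all loci compared were. In either direction this makes 3 of 10 genes, against 22.3% of all loci compared. With so few genes these counts lie near the background, and they are not a result about the families. The median log2 difference was -0.07 over the sucrose synthase genes and -0.35 over the sucrose-phosphate synthase genes, beside 0.04 over all loci compared. The sucrose synthase median thus lay below 0 while the family sum was higher at maturity, because the sum is carried by 3 abundant genes and the median counts the 2 scarce ones equally. Over the same 5 genes that median is positive under 2 of the scalings tried, at 0.056 with quantile normalization and 0.19 with equal sums.

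**Figure D2:**
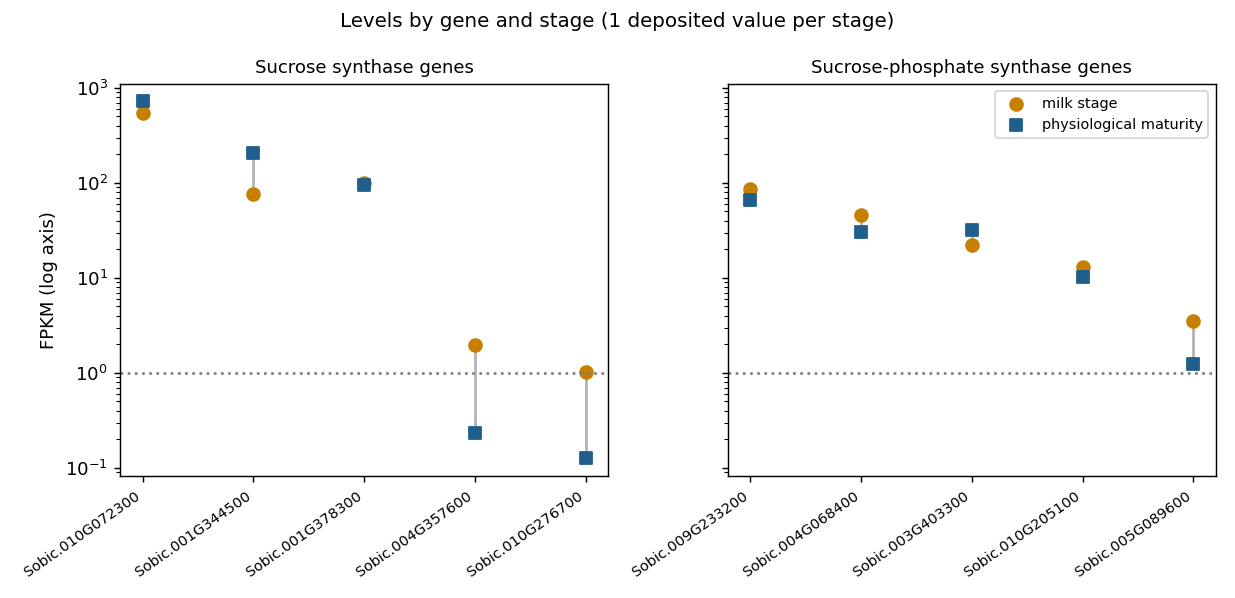
FPKM (log axis) of each gene at the milk stage (circles) and at physiological maturity (squares), with 1 deposited value per stage and no error, sucrose synthase genes on the left and sucrose-phosphate synthase genes on the right in order of mean level; the dotted line is 1 FPKM. Sobic.001G344500 lies below Sobic.001G378300 at the milk stage and above it at maturity, and Sobic.004G357600 and Sobic.010G276700 lie under 1 FPKM at maturity.

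Among the sucrose synthase genes, 1 gene supplied most of the transcript. Sobic.010G072300 (chromosome 10 by its identifier) had 543 FPKM in milk-stage internodes and 720 FPKM in mature ones, 75.2% and 70.3% of the family sum. It ranked 173rd of all loci in the table at the milk stage and 73rd at maturity. Its log2 difference of 0.40 fell inside the middle range of all loci compared (25th percentile -0.48, 75th percentile 0.57). It was 1 of 5 such genes among the 10. Its FPKM gain of 176 was the largest of the 10 genes.

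Sobic.001G344500, on chromosome 1, had the largest relative increase of the 10 genes. It had 77.2 FPKM at the milk stage against 209 FPKM at maturity, 2.68-fold higher on the log2(FPKM + 1) scale. Its log2 difference of 1.42 exceeded that of 94.6% of the loci compared. Its rank went from 1861st to 481st and its part of the family sum from 10.7% to 20.4%. Among loci with a mean of 100 to 500 FPKM, where it belongs, 7.05% were at least 2-fold higher. The locus that precedes it in the assembly numbering, Sobic.001G344600, was also at least 2-fold higher at maturity, at 9.05 and 44.4 FPKM. Whether reads are shared between these loci was not tested.

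Sobic.001G378300, also on chromosome 1, was the closest between the stages as deposited, though with equal sums Sobic.010G205100 (-0.06) and Sobic.009G233200 (-0.09) were closer. Its 99.2 FPKM in milk-stage internodes and 94.5 FPKM in mature ones gave a log2 difference of -0.07, which turned positive with quantile normalization (0.056) and with equal sums (0.19). The order of this pair of chromosome 1 genes was reversed as deposited. At the milk stage they lay only 1.29-fold apart, so their order there cannot be relied on without replicates. Sobic.001G344500 stood at 0.778 times the level of Sobic.001G378300 at the milk stage and at 2.21 times at maturity. Against Sobic.010G072300, Sobic.001G344500 was 7.04 times less abundant at the milk stage and 3.45 times less at maturity. These ratios within a stage show unequal differences between the genes and do not depend on a scaling factor.

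The remaining sucrose synthase genes were scarce at both stages. Sobic.004G357600, on chromosome 4, had 1.97 FPKM in milk-stage internodes and 0.235 FPKM in mature ones, and Sobic.010G276700, on chromosome 10, had 1.03 and 0.127 FPKM. Together they made up under 1% of the family sum at each stage. As plain ratios they were 8.36-fold and 8.15-fold lower, and Sobic.004G357600 remained close to 1.9 times as abundant as Sobic.010G276700 (1.91 at the milk stage and 1.86 at maturity). With 1 added to each value their log2 differences were -1.26 and -0.85, so only the former passed the 2-fold limit, and Sobic.010G276700 passed it as well with pseudocounts of 0.1 and 0.5. Sobic.004G357600 and Sobic.010G276700 entered the comparison through the milk stage alone, being under 1 FPKM at maturity, and so had to differ to some degree. The number of fragments behind such low values is unknown, and so is their counting error. The span of the family, from its most to its least abundant gene, was 526-fold at the milk stage and 5680-fold at maturity.

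**Figure D3:**
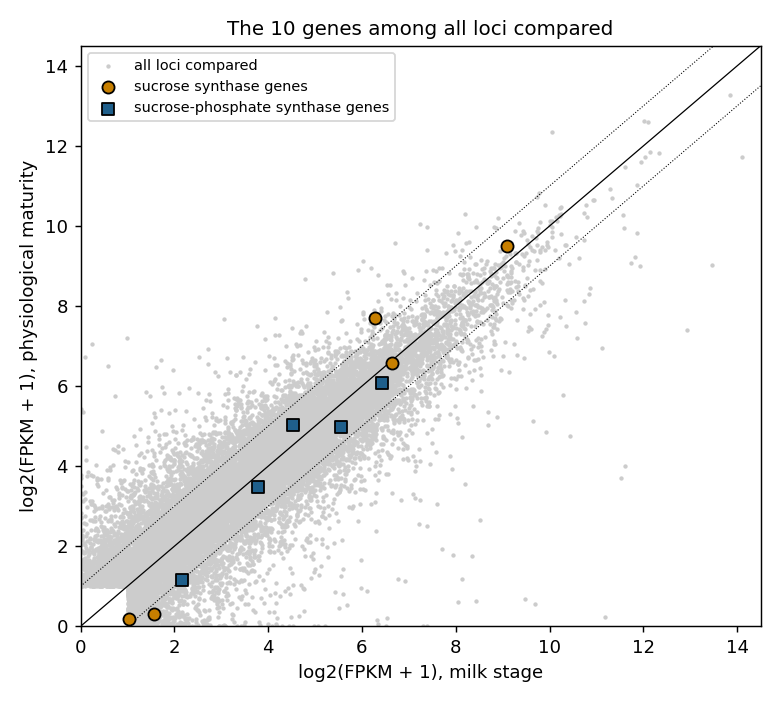
Level at physiological maturity against level at the milk stage, both as log2(FPKM + 1), for the 18749 loci compared (grey), the sucrose synthase genes (circles) and the sucrose-phosphate synthase genes (squares); the solid line marks equal levels and the dotted lines 2-fold differences. Sobic.001G344500 lies above the upper dotted line, Sobic.004G357600 and Sobic.005G089600 lie below the lower one, and the other 7 genes lie between them.

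Although all 5 lay above the 2 scarce sucrose synthase genes, the sucrose-phosphate synthase genes were lower in sum and in median level. They were more evenly spread, with no gene above 100 FPKM at either stage. Their most abundant gene, Sobic.009G233200 on chromosome 9, had 85.2 FPKM in milk-stage internodes and 66.6 FPKM in mature ones, 50.2% and 47.5% of the family sum. Its log2 difference was -0.35 as deposited and -0.09 with equal sums. Its numbered neighbours, Sobic.009G233300 and Sobic.009G233400, had mean levels 3.99 and 3.32 times its own, so any reads shared with them would weigh on its value, which was not tested.

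Sobic.003G403300, on chromosome 3, was the only sucrose-phosphate synthase gene with a higher value at maturity, 31.7 FPKM against 22.2 FPKM at the milk stage. Its log2 difference of 0.49 was within the central range of all loci compared and stayed positive under each scaling tried. Sobic.004G068400, on chromosome 4, went the other way, from 45.9 to 30.5 FPKM, a log2 difference of -0.58. The level of Sobic.003G403300 was 0.484 times that of Sobic.004G068400 at the milk stage and 1.04 times at maturity, where the pair lay so close that their order cannot be relied on without replicates. Their parts of the family sum went from 13.1% to 22.6% and from 27.1% to 21.7%.

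Sobic.010G205100, on chromosome 10, had 12.9 FPKM in milk-stage internodes and 10.2 FPKM in mature ones. Its log2 difference of -0.31 shrank to -0.06 with equal sums. It kept nearly the same ratio to the leading gene, Sobic.009G233200 being 6.62 times as abundant at the milk stage and 6.52 times at maturity. The locus numbered after it, Sobic.010G205200, had a mean level 30.9 times its own.

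Sobic.005G089600, on chromosome 5, was the scarcest gene of its family, with 3.50 FPKM in milk-stage internodes and 1.24 FPKM in mature ones. Of the 5093 loci compared with a mean of 1 to 5 FPKM, to which it and Sobic.004G357600 belong, 9.97% were at least 2-fold lower. It lay just past the 2-fold limit, 2.01-fold lower on the log2(FPKM + 1) scale, and its plain ratio was 2.83-fold. With equal sums its log2 difference was -0.83, short of the limit. Both loci beside it in the assembly numbering were also at least 2-fold lower at maturity: Sobic.005G089400 was at 27.3 and 11.4 FPKM, and Sobic.005G089800 at 1.76 and 0.0703 FPKM. Sobic.005G089800 was compared through the milk stage alone and so had to be lower to some degree. Sobic.005G089400 had a mean level 8.14 times that of Sobic.005G089600, and the part of shared reads in these values was not tested. Of the 20 loci numbered directly beside the 10 genes, 17 were compared. At maturity 1 of these was at least 2-fold higher and 2 at least 2-fold lower, those named here. Over all loci compared the shares were 11.5% and 10.7%, and with so few loci these counts lie near that background.

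**Figure D4:**
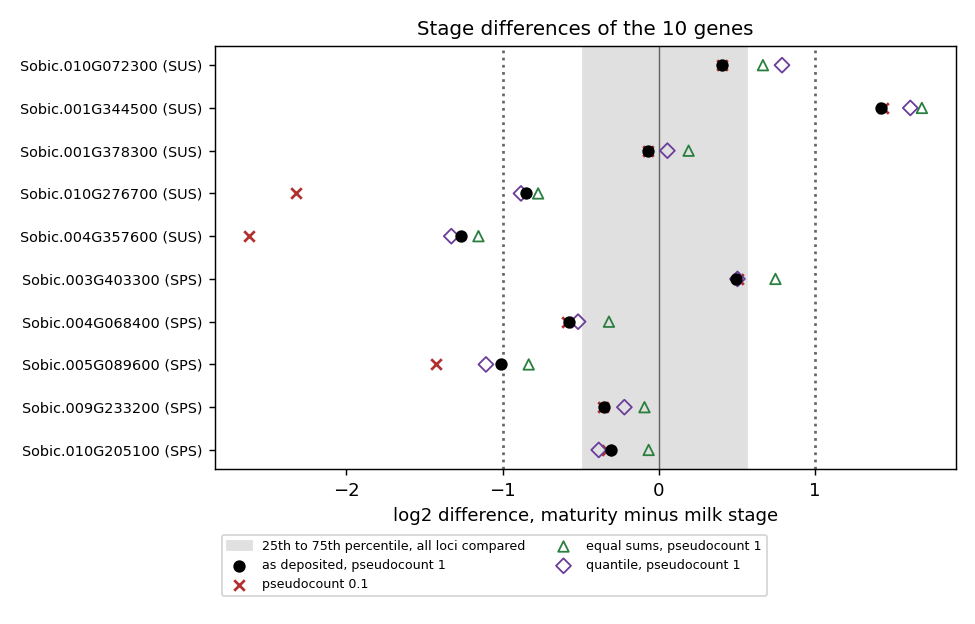
Log2 difference (maturity minus milk stage) of each sucrose synthase (SUS) and sucrose-phosphate synthase (SPS) gene as deposited with a pseudocount of 1 (filled circles), with a pseudocount of 0.1 (crosses), and with equal sums (triangles) or quantile normalization (diamonds); the grey band is the 25th to 75th percentile of all loci compared and the dotted lines mark 2-fold. Sobic.001G344500 lies above 1 in each case, Sobic.001G378300 crosses 0 with both scalings, and the 2 scarce sucrose synthase genes move to -2.32 and -2.62 with a pseudocount of 0.1.

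Across both families, the 2 most abundant genes of the 10 by mean level, Sobic.010G072300 and Sobic.001G344500, were higher at maturity. Only the latter passed the 2-fold limit. The mean includes the maturity value, so ranking by it favours genes that were higher there. By milk-stage level Sobic.001G344500 was 4th of the 10, at 77.2 FPKM. Sobic.001G378300 (99.2 FPKM) and Sobic.009G233200 (85.2 FPKM) stood above it then, and as deposited both were lower at maturity. In the whole table, 28.1% of the 153 loci compared with a mean of 500 FPKM or more were at least 2-fold lower at maturity and 7.84% at least 2-fold higher. Of the 10 genes, only Sobic.010G072300 averaged that much, and its log2 difference of 0.40 counts in neither share. Sobic.001G344500, averaging 143 FPKM, falls in the next band down, where 17.7% passed the limit downward and 7.05% upward. Differences by any amount were not counted per band, so the direction of the pair cannot be set against these shares.

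Of 4 other genes that move or cleave sucrose, 3 had larger values at maturity and 1 a smaller value, where 52% of all loci compared were higher. Of the 4, 1 differed by at least 2-fold, SWEET8A, a share near the 22.3% of all loci compared. The higher ones are transport genes: SWEET8A (Sobic.008G094000), a SWEET sugar carrier, had a log2 difference of 1.17, SUT1 (Sobic.001G488700), a sucrose-proton symporter, 0.65, and TST2 (Sobic.004G099300), which carries sugar into the vacuole, 0.35. The lower one is a gene for vacuolar invertase (Sobic.004G004800), an enzyme that also cleaves sucrose. The summed sucrose synthase level was 505 times that of this invertase gene at the milk stage and 3572 times at maturity. These ratios set 5 genes against 1, and no other invertase gene was examined. The invertase gene was at only 1.43 and 0.286 FPKM. It was compared through the milk stage alone, and the counting error of values this low, on which the later ratio rests, is unknown. In whole internodes, fewer cells of a type and less RNA per cell cannot be told apart, for these genes and for both families.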

How the data were processed

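Stem libraries of sorghum line ICSA38 (2 per stage) were analysed from 1 table of FPKM values computed by the authors. The labels' protocols give a modified Trizol extraction and a stranded library kit for total RNA. The submitters' processing notes name HISAT2 2.0.5, Bowtie2 2.2.9, Cuffdiff and cutadapt 1.8.1, with no roles. How libraries were scaled to each other, the genome build, the annotation and the strand setting are not given in the sources consulted, and depth is unknown. The planned limma test needs a value per library and was not run. Log2 differences used a pseudocount of 1, over loci at 1 FPKM or more at either stage, and 2-fold differences were counted. All 10 members are named, with 4 further sugar genes taken by identifier. Members and lists were chosen with earlier results of these data known. None of the 34129 gene identifiers matched the reference gene table (0 matches), so lists by product words, markers of other tissues, coordinates and sequences were not used. Family assignment was not checked against sequence. Alternatives were other pseudocounts, FPKM minimums, fold limits, 3 scalings, families without each member, and, after seeing the data, plain ratios and loci with 1 identifier. The calculation was tested on simulated data. Software was pandas 2.3.3, numpy 2.4.6, matplotlib 3.10.9 and scipy 1.17.1 under Python 3.11.15.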

Additional observations from a re-analysis of the deposited data

How the results depend on the processing

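The log2 change in the ratio of the family sums was 0.78 as deposited and 1.03 with quantile normalization. It kept its direction without each gene in turn, but was not tried without both Sobic.010G072300 and Sobic.001G344500. Equal sums and median-of-ratios scaling apply 1 factor per stage and so could not alter it. The sucrose synthase median (-0.07) turned positive with quantile normalization (0.056), equal sums (0.43 over the 4 genes then past the 1 FPKM minimum, Sobic.010G276700 being lost, and 0.19 over all 5, added after seeing the data), a 5 FPKM minimum (0.40 over 3 genes) and without either scarce gene, Sobic.010G276700 or Sobic.004G357600 (0.17 each). Sobic.001G378300 turned positive with quantile normalization (0.056) and equal sums (0.19). The count of 2 lower genes was 1 with equal sums and 0 with a 5 FPKM minimum, under which the 3 scarce genes are not compared, and 3 with pseudocounts of 0.1 and 0.5, plain ratios and a 1.5-fold limit. With a 4-fold limit, 0 genes were higher and 0 lower; over all loci 416 were higher and 427 lower, against 4545 and 3934 with a 1.5-fold limit. Equal sums moved the median of all loci by 0.23. The higher loci then made up 69.7% of those past the 2-fold limit, against 51.8% as deposited. Of 60 values of single genes under 6 alternatives, 58 kept their sign. The other pseudocounts and the plain ratio cannot change a sign, so only the values under the 3 scalings could have turned. The values that turned were those of Sobic.001G378300 given above. No paired analysis was possible because both libraries of a stage share 1 column, and for the same reason no library could be left out. The unknown depth limits the reading of genes under 5 FPKM.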
